A study of Mus musculus with 9 samples.

Results

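The glutathione, thioredoxin and NRF2 antioxidant genes are described here in B16 cells, a mouse melanoma line. They were taken from the deposited gene table by symbol. They are the protein-coding genes of the glutathione transferase, glutathione peroxidase, peroxiredoxin, thioredoxin, glutaredoxin, superoxide dismutase and aldo-keto reductase families. Named NRF2 targets, heme and ferritin genes and genes of NADPH supply were added to these. This gave 84 of the 21676 genes in the table, and the choice went by symbol, with earlier results of these data known. Of the 84, 75 had enough reads to be tested. Total RNA was sequenced from 3 groups of 3 libraries: B16 cells with the hairpin shAD4-1, B16 cells with the hairpin shAD4-2, and B16 cells with a control hairpin. The labels name no treatment beyond culture in serum-containing medium, and the title of the series names ADGRL4, a receptor of the adhesion family of G protein-coupled receptors. The labels do not say whether the replicates of a hairpin are cultures of 1 line or separate transductions. P-values therefore measure only the spread between these libraries, which may be technical, and if a hairpin is represented by 1 line, its effect cannot be told apart from a property of that line. In bulk RNA, fewer cells of a kind and less RNA per cell cannot be told apart either.

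NRF2, encoded by Nfe2l2, is a transcription factor that KEAP1 marks for degradation. When oxidants or electrophiles modify KEAP1, or when p62 occupies it, NRF2 builds up, pairs with small MAF proteins and binds antioxidant response elements in genes for glutathione synthesis, thioredoxin reduction, quinone reduction and heme breakdown. Glutathione is used by peroxidases, transferases and glutaredoxins, thioredoxin by peroxiredoxins and ribonucleotide reductase, and both are re-reduced at the cost of NADPH. In pigment cells, melanin synthesis is itself a source of hydrogen peroxide and reactive quinones.

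Library totals ran from 31.3 to 36.9 M reads. No pair of libraries agreed within counting noise, and control replicate 1 was unlike the other controls, with a chi-square per degree of freedom of 12.5 and 18.2 against them and 3.43 between those others. Adgrl4 was not analysed here, so the extent of the knockdown was not checked. The 7 melanocyte markers were all above 1 CPM (read counts scaled to library size, with edgeR's TMM factors) and summed to 9880 to 10100 CPM in shAD4-1, 10700 to 11700 CPM in shAD4-2 and 11100 to 12700 CPM in control libraries. The 3 endothelial markers in the table stayed at or under 0.283 CPM in sum, and the 1 keratinocyte marker, Krt10, at or under 0.107 CPM. The 4 fibroblast markers in the table summed to 10.4 to 12.2 CPM in shAD4-1, 12.4 to 14 CPM in shAD4-2 and 5.08 to 7.10 CPM in control libraries. The 5 immune markers summed to 7.40 to 7.97 CPM in shAD4-1, 7.90 to 8.64 CPM in shAD4-2 and 3.23 to 3.74 CPM in control libraries, with the defining marker Ptprc at 0 reads in shAD4-2 and control. Mitochondrially encoded genes held 3.62 to 3.81% of reads in shAD4-1, 3.60 to 3.89% in shAD4-2 and 2.30 to 2.61% in control libraries. The fibroblast, immune and mitochondrial shifts moved with the hairpins in every comparison with control below. Single genes held most of the marker rises. Means in shAD4-1, shAD4-2 and control were 3.59, 4.94 and 0.587 CPM for Col1a2 and 4.06, 4.71 and 2.49 CPM for Col1a1. Pdgfra stood at 3.87, 3.42 and 3.28 CPM. Of the immune markers, Lyz2 averaged 2.89, 4.29 and 0.183 CPM and Cd68 4.62, 3.85 and 3.19 CPM. The melanocyte sums of shAD4-2 and control overlapped. The part of these differences in the results was not tested.

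Against control, the antioxidant genes were called higher and lower about as often as genes at large, of which 65% in shAD4-1 and 69% in shAD4-2 were called. Genes at large are here all tested genes, without matching for expression level. In shAD4-1, 27 of the 75 tested members were higher and 23 lower at an adjusted p under 0.05, that is 36.0% and 30.7%, beside 32.7% and 32.3% of all 13807 tested genes. In shAD4-2, 22 were higher and 30 lower, or 29.3% and 40.0%, beside 34.2% and 34.8% of all tested genes. Median log2 fold changes of the members were 0.0311 for shAD4-1 and 0.0148 for shAD4-2, beside -0.0103 and -0.0111 over all tested genes. The comparisons share their control libraries. Counts given below for single roles and for lists of related genes stand beside these shares of all tested genes, and the lists, also chosen with earlier results known, were not tested as groups. At least 1.5-fold changed were 11 members higher and 8 lower in shAD4-1, beside 12.6% and 12.5% of all tested genes, and 6 higher and 10 lower in shAD4-2, beside 13.7% and 15.6%. Between the hairpin lines the members leaned to lower values in shAD4-2: 4 were higher and 35 lower in shAD4-2 than in shAD4-1, or 5.33% and 46.7%, beside 13.4% and 14% of all tested genes, of which 27.4% were called. Tests were edgeR's quasi-likelihood tests with Benjamini-Hochberg adjustment over all tested genes, and ± after a log2 fold change is its SE.

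**Figure D1:**
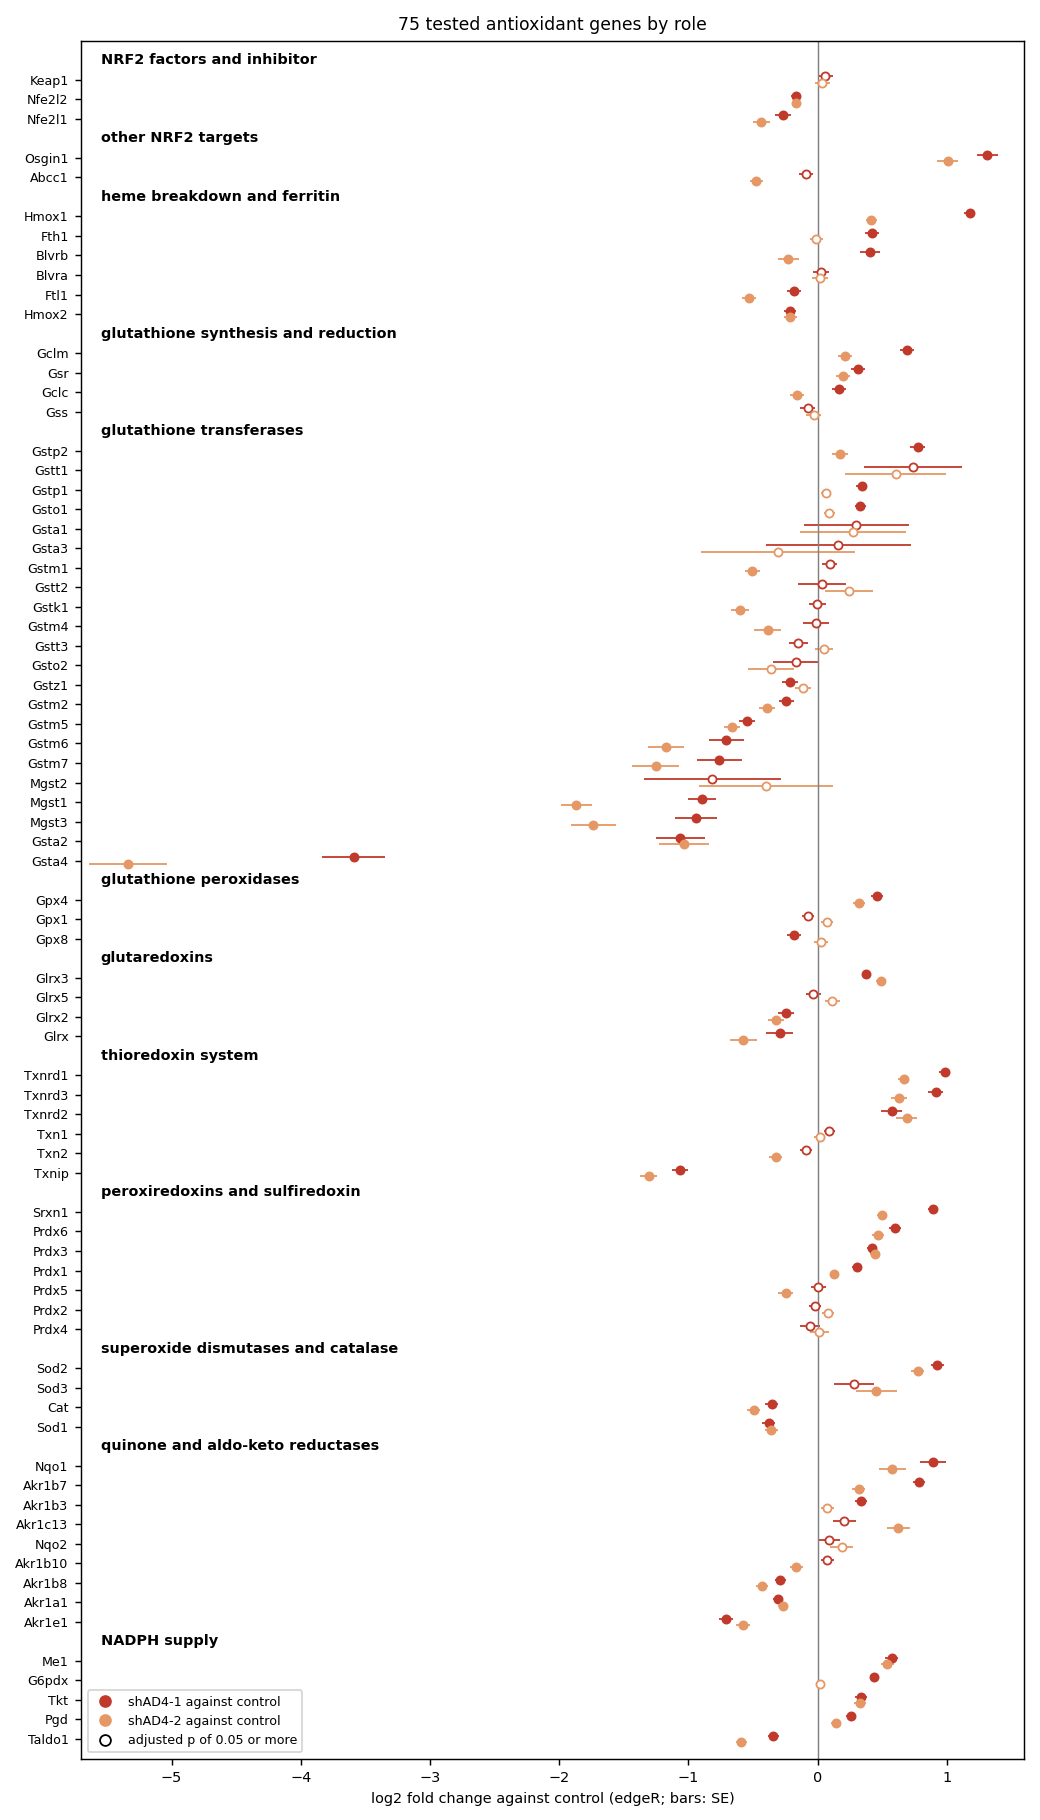
Log2 fold change against control (horizontal axis) of the 75 tested antioxidant genes, grouped by role, for shAD4-1 (dark red) and shAD4-2 (light orange), with bars for the SE and open points for an adjusted p of 0.05 or more. Thioredoxin reductases, sulfiredoxin, Hmox1 and Osgin1 lie to the right, Txnip and the transferases Gsta4, Mgst1 and Mgst3 to the left, and the lowest points are those of Gsta4, at -5.34 for shAD4-2 and -3.59 for shAD4-1.

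The transcripts of NRF2 and its inhibitor moved little. Nfe2l2 stood at 180.0, 177 and 178 CPM in the shAD4-1 libraries, 179, 176 and 179.9 CPM in the shAD4-2 libraries and 207, 199 and 194 CPM in the control libraries. Every hairpin library lay below every control library, by 1.12-fold in shAD4-1 (log2 fold change -0.17 ± 0.037, adjusted p = 0.000619) and 1.12-fold in shAD4-2 (-0.16 ± 0.037, adjusted p = 0.000643). Keap1, the adaptor that presents NRF2 for ubiquitination, had 37.4, 36.4 and 36.6 CPM in the shAD4-1 libraries, 38.7, 35.3 and 34.6 CPM in the shAD4-2 libraries and 35.7, 35.6 and 34.7 CPM in the control libraries. It passed the test in neither comparison (adjusted p = 0.382 for shAD4-1 and 0.586 for shAD4-2). Nfe2l1, which encodes the related factor NRF1, had 726, 727 and 687 CPM in the shAD4-1 libraries, 643, 636 and 623 CPM in the shAD4-2 libraries and 729, 888 and 958 CPM in the control libraries. It was lower in both hairpin lines, with log2 fold changes of -0.27 ± 0.065 in shAD4-1 and -0.44 ± 0.065 in shAD4-2, and control replicate 1 lay nearest to the hairpin libraries. Without control replicate 3 the log2 fold change in shAD4-1 was -0.18 (adjusted p = 0.0107).

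Of 12 genes for NRF2's partners, competitors and degraders, 8 were higher and 1 lower in shAD4-1, and 8 higher and 2 lower in shAD4-2, beside 32.7% higher and 32.3% lower in shAD4-1 and 34.2% higher and 34.8% lower in shAD4-2 over all tested genes. The largest change was in Sqstm1, which encodes p62, the autophagy receptor that binds KEAP1. It had 3105, 3067 and 2976 CPM in the shAD4-1 libraries, 3120.4, 3160.4 and 3077 CPM in the shAD4-2 libraries and 1427, 1519.7 and 1573 CPM in the control libraries, with every hairpin library far above every control (2.02-fold in shAD4-1, adjusted p = 9.03e-14, and 2.07-fold in shAD4-2, adjusted p = 4.76e-14). The small MAF genes also rose. Mafk had log2 fold changes of 0.62 ± 0.065 in shAD4-1 and 0.58 ± 0.065 in shAD4-2, Maff 0.83 ± 0.13 in shAD4-1 and 0.43 ± 0.13 in shAD4-2, and Mafg 0.24 ± 0.039 in shAD4-1 and 0.10 ± 0.039 in shAD4-2. Cul3, the scaffold of the ligase that KEAP1 serves, was higher by 0.25 ± 0.065 in shAD4-1 and 0.47 ± 0.065 in shAD4-2. Bach1, a repressor that competes for antioxidant response elements, averaged 47.0 ± 2.48 CPM in shAD4-1, 48.8 ± 1.02 CPM in shAD4-2 and 47.5 ± 1.62 CPM in control libraries (SD, n = 3) and passed neither test (adjusted p = 0.824 for shAD4-1 and 0.531 for shAD4-2). Bach2 was higher in shAD4-1 (0.25 ± 0.092) and lower in shAD4-2 (-0.35 ± 0.10).

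Hmox1, Txnrd1, Srxn1, Gclm, Nqo1 and Osgin1, all known as NRF2 targets, were higher in both hairpin lines, while G6pdx, Abcc1 and Gclc were not. These genes were picked by name and are not every NRF2 target in the set. Other members, among them Gsta4, Mgst1, Gstm5 and Taldo1, were lower in both lines. Hmox1, the inducible heme oxygenase, stood at 351, 360.3 and 332 CPM in the shAD4-1 libraries, 209, 198 and 209 CPM in the shAD4-2 libraries and 148, 156 and 159 CPM in the control libraries. The 3 groups did not overlap, and shAD4-2 lay closer to control than to shAD4-1. The gene was 2.26-fold higher in shAD4-1 than in control (log2 fold change 1.18 ± 0.042, adjusted p = 3.85e-14) and 1.33-fold higher in shAD4-2 (0.41 ± 0.042, adjusted p = 6.98e-08). Txnrd1, the cytosolic thioredoxin reductase, had 1161, 1179 and 1191 CPM in the shAD4-1 libraries, 941, 935 and 959 CPM in the shAD4-2 libraries and 545, 612 and 631 CPM in the control libraries. Again no group overlapped another, with log2 fold changes of 0.98 ± 0.045 in shAD4-1 and 0.67 ± 0.045 in shAD4-2. Srxn1, sulfiredoxin, which restores overoxidised peroxiredoxins, had 306, 317 and 309.8 CPM in the shAD4-1 libraries, 238, 240.3 and 231 CPM in the shAD4-2 libraries and 160.4, 170.4 and 172 CPM in the control libraries, also without overlap (0.89 ± 0.038 in shAD4-1 and 0.49 ± 0.038 in shAD4-2). Gclm, the regulatory subunit of glutamate-cysteine ligase, had 48.2, 49.8 and 47.7 CPM in the shAD4-1 libraries, 34.9, 35.5 and 33.9 CPM in the shAD4-2 libraries and 28.9, 30.6 and 30.6 CPM in the control libraries. Its rise was 1.62-fold in shAD4-1 (adjusted p = 2.09e-09) and 1.16-fold in shAD4-2 (adjusted p = 0.00227).

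Nqo1, the quinone reductase, was scarce in this line, at 13.3, 14.1 and 13.2 CPM in the shAD4-1 libraries, 11.2, 12.03 and 9.35 CPM in the shAD4-2 libraries and 7.20, 6.96 and 7.64 CPM in the control libraries. All hairpin libraries lay above all controls (log2 fold change 0.89 ± 0.10, adjusted p = 4.28e-07 in shAD4-1 and 0.58 ± 0.10, adjusted p = 8.41e-05 in shAD4-2). Osgin1, an oxidative stress-induced growth inhibitor, had 69.6, 68.03 and 71.8 CPM in the shAD4-1 libraries, 55.4, 58.1 and 55.7 CPM in the shAD4-2 libraries and 23.0, 29.4 and 31.6 CPM in the control libraries. This was the largest rise among the tested members in each comparison with control, 2.49-fold in shAD4-1 and 2.01-fold in shAD4-2, and control replicate 1 was the lowest of the 9 libraries. G6pdx and Abcc1 did not follow this order. G6pdx, glucose-6-phosphate dehydrogenase, had 215, 212 and 209 CPM in the shAD4-1 libraries, 162, 157 and 157 CPM in the shAD4-2 libraries and 157, 157 and 156 CPM in the control libraries: it was higher in shAD4-1 (0.44 ± 0.035, adjusted p = 3.49e-09), while shAD4-2 overlapped control (0.02 ± 0.035, adjusted p = 0.626). Abcc1, a pump for glutathione conjugates, had 156, 155 and 151 CPM in the shAD4-1 libraries, 116, 122.7 and 116 CPM in the shAD4-2 libraries and 147, 171 and 174 CPM in the control libraries. It was lower in shAD4-2 (-0.47 ± 0.052, adjusted p = 2.25e-07) and overlapped control in shAD4-1 (-0.091 ± 0.052, adjusted p = 0.131).

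**Figure D2:**
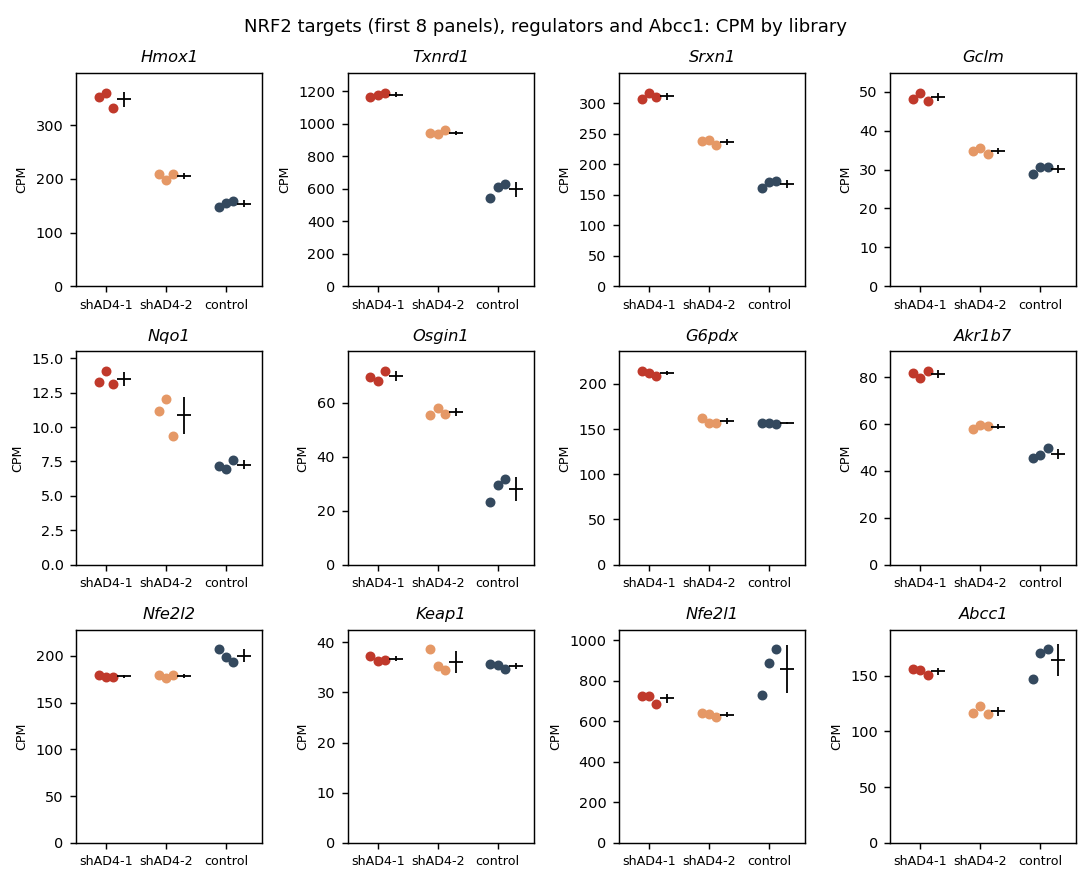
Scaled read counts (CPM, vertical axes from 0) in each library for 8 NRF2 targets in the first panels, then Nfe2l2, Keap1, Nfe2l1 and Abcc1, with shAD4-1, shAD4-2 and control from left to right and a mean ± SD bar beside the 3 points. Hmox1 sits at 351, 360.3 and 332 CPM in shAD4-1, apart from all other libraries, while Keap1 is level across the groups. The 8 targets are a choice and not all of those in the set, and Abcc1, also named as a target, is lower in shAD4-2.

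Promoter windows are shown for 3 of these targets that moved together, Txnrd1, Srxn1 and Gclm. That of Txnip is shown because it moved the other way. Only windows with a match to the motifs below were open to this choice. Sequences are RefSeq's on GRCm38.p6, a build other than that of the counts, from 250 bases before to 50 after the start of the gene. The positions are chr10:82858956-82859255 for Txnrd1, chr2:152105274-152105573 for Srxn1, chr3:122245307-122245606 for Gclm and chr3:96557707-96558006 for Txnip, all on the plus strand. Capitals mark matches on either strand to the antioxidant response element core in the forms TGACNNNGC or TGAGNNNGC (N is any base), and in Txnip to the carbohydrate response element, which is CACGNG, any 5 bases and CACGNG again.
Txnrd1: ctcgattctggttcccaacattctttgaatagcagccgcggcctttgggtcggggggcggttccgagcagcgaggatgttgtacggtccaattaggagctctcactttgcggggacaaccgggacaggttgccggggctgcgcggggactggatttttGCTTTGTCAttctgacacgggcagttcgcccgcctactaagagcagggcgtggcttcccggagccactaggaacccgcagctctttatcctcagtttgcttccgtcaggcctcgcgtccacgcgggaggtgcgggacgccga
Srxn1: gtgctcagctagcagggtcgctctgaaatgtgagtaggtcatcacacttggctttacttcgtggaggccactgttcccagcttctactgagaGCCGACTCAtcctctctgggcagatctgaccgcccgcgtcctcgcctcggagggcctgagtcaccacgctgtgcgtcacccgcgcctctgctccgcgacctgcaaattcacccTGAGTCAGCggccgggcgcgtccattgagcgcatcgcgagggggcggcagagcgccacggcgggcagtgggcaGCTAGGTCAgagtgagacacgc
Gclm: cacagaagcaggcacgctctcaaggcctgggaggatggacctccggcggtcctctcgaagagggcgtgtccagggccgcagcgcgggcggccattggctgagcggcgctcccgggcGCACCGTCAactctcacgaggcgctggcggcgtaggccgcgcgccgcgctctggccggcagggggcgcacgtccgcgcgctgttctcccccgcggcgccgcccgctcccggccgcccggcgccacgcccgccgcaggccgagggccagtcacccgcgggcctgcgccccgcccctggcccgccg
Txnip: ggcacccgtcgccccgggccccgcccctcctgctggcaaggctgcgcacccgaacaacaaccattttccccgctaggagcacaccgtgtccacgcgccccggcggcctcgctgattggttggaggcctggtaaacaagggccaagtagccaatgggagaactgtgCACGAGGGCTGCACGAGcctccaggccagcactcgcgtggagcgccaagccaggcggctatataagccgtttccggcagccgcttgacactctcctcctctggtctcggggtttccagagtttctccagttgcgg
The Txnrd1 window has 1 match, with its first base at -92 from the start of the gene, and the Gclm window 1 at -134. The Srxn1 window has 3, of which those at -158 and -45 are of the TGAG form and that at 29 of the TGAC form. The match at -45, TGAGTCAGC, is on the plus strand, and the others are on the minus strand. TGACNNNGC occurred in 12.4% of 32851 mouse promoters and TGAGNNNGC in 17.6%, and either form in 27.8%. Of the 84 members, 75 had a promoter entry and 30 of these, 40.0%, held either form, beside 30.8% of all 27025 genes with an entry. Hmox1, Gclc, Gsr, Gsta4, Abcc1, Akr1b3, Gstt2, Prdx6 and Sod3 had no entry. Nqo1, which rose in both lines, had an entry and held neither form. A match describes letters only. Among tested members with a match, 13 of 26 were higher and 8 lower in shAD4-1, and 11 higher and 9 lower in shAD4-2. Among the 40 without one, 9 were higher and 14 lower in shAD4-1, and 7 higher and 18 lower in shAD4-2. Over all tested genes the shares were 32.7% higher and 32.3% lower in shAD4-1, and 34.2% and 34.8% in shAD4-2. These are counts only, and the difference between the groups of promoters was not tested.

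Among the enzymes that make and recycle glutathione, Gclm and Gsr rose in both lines, while Gclc moved in opposite directions. Gclc, the catalytic subunit of glutamate-cysteine ligase, had 104, 105 and 103 CPM in the shAD4-1 libraries, 83.2, 78.7 and 86.7 CPM in the shAD4-2 libraries and 83.8, 93.0 and 100.5 CPM in the control libraries. It was higher in shAD4-1 (0.17 ± 0.055, adjusted p = 0.0132) and lower in shAD4-2 (-0.16 ± 0.056, adjusted p = 0.0176), where its libraries overlapped control replicate 1. The lower call did not survive leaving out control replicate 2 (adjusted p = 0.061), control replicate 3 (adjusted p = 0.172) or shAD4-2 replicate 2 (adjusted p = 0.102), and the higher call in limma on log2(FPKM + 1) (adjusted p = 0.126). Without control replicate 1 the log2 fold change in shAD4-1 was 0.11 (adjusted p = 0.0379). Gss, glutathione synthetase, had 43.8, 43.3 and 44.6 CPM in the shAD4-1 libraries, 46.1, 47.4 and 42.4 CPM in the shAD4-2 libraries and 42.6, 48.9 and 47.3 CPM in the control libraries. The groups overlapped and neither test passed (adjusted p = 0.267 for shAD4-1 and 0.663 for shAD4-2). Gsr, glutathione reductase, had 56.2, 55.2 and 54.5 CPM in the shAD4-1 libraries, 48.3, 50.5 and 54.2 CPM in the shAD4-2 libraries and 43.8, 45.3 and 44.5 CPM in the control libraries, and every hairpin library lay above every control (log2 fold change 0.31 ± 0.052 in shAD4-1 and 0.20 ± 0.052 in shAD4-2).

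Of the genes that feed this pathway, both chains of the cystine antiporter rose. Slc7a11, the cystine-importing subunit of the xCT antiporter, stood at 401, 406 and 431 CPM in the shAD4-1 libraries, 187, 188 and 212 CPM in the shAD4-2 libraries and 162, 147 and 131 CPM in the control libraries. It was 2.82-fold higher in shAD4-1 (log2 fold change 1.49 ± 0.062, adjusted p = 3.84e-13) and 1.33-fold higher in shAD4-2 (0.42 ± 0.062, adjusted p = 9.53e-06), with no overlap between any groups. Its partner chain Slc3a2 had 684, 683 and 674 CPM in the shAD4-1 libraries, 616, 615 and 611 CPM in the shAD4-2 libraries and 432, 492 and 486 CPM in the control libraries, higher by 0.53 ± 0.042 in shAD4-1 and 0.38 ± 0.042 in shAD4-2. Of 13 tested genes for cystine import and cysteine and glutathione supply, 7 were higher and 3 lower in shAD4-1, and 6 higher and 3 lower in shAD4-2, where all tested genes gave 32.7% and 32.3% in shAD4-1 and 34.2% and 34.8% in shAD4-2. Cth, cystathionine gamma-lyase, rose by 0.87 ± 0.044 in shAD4-1 and 1.04 ± 0.044 in shAD4-2. Chac1, which breaks glutathione down, rose by 0.84 ± 0.038 in shAD4-1 and 0.50 ± 0.038 in shAD4-2. Ggct, gamma-glutamyl cyclotransferase, fell (-0.65 ± 0.11 in shAD4-1 and -0.85 ± 0.11 in shAD4-2), and so did the scarce Cbs, cystathionine beta-synthase (-0.61 ± 0.23 in shAD4-1 and -0.82 ± 0.24 in shAD4-2).

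In the thioredoxin system all 3 reductases rose, thioredoxin itself did not pass the test, and the thioredoxin inhibitor Txnip fell. Txn1, cytosolic thioredoxin, had 240.0, 246 and 256 CPM in the shAD4-1 libraries, 238, 223 and 243 CPM in the shAD4-2 libraries and 235, 238 and 224 CPM in the control libraries (adjusted p = 0.0591 for shAD4-1 and 0.761 for shAD4-2). Txnrd3, the reductase best known from testis, had 62.3, 68.1 and 63.9 CPM in the shAD4-1 libraries, 52.1, 55.8 and 51.8 CPM in the shAD4-2 libraries and 31.6, 35.1 and 36.4 CPM in the control libraries, a 1.88-fold rise in shAD4-1 and 1.55-fold in shAD4-2. Txnrd2, the mitochondrial reductase, had 26.5, 21.8 and 22.5 CPM in the shAD4-1 libraries, 26.8, 24.8 and 25.04 CPM in the shAD4-2 libraries and 17.2, 15.2 and 15.2 CPM in the control libraries. Here the hairpin libraries overlapped each other (log2 fold changes 0.57 ± 0.082 in shAD4-1 and 0.69 ± 0.083 in shAD4-2, adjusted p = 0.307 between them). Mitochondrial thioredoxin, Txn2, was lower in shAD4-2 (-0.32 ± 0.049, adjusted p = 1.19e-05) and did not pass in shAD4-1 (-0.09 ± 0.049, adjusted p = 0.117).

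Txnip, an arrestin-like protein that binds reduced thioredoxin and limits glucose uptake, stood at 423, 435 and 429 CPM in the shAD4-1 libraries, 368, 361 and 359 CPM in the shAD4-2 libraries and 759, 969 and 965 CPM in the control libraries. The hairpin libraries lay far below all controls, of which replicate 1 was the lowest. The fall was 2.09-fold in shAD4-1 (log2 fold change -1.06 ± 0.064, adjusted p = 6.29e-11) and 2.48-fold in shAD4-2 (-1.31 ± 0.065, adjusted p = 3.4e-12). Glucose acts on Txnip through the MondoA and ChREBP factors and their partner MLX, which bind carbohydrate response elements. The Txnip window printed above has a match to this element with its first base at -85, a pattern present in 16 of 32851 promoters (0.0487%) and in no other member. Of 5 tested genes for TXNIP regulators and relatives, 0 were higher and 2 lower in shAD4-1, and 0 higher and 3 lower in shAD4-2, with 32.3% and 34.8% of all tested genes lower in shAD4-1 and shAD4-2. Mlxip, which encodes MondoA, had log2 fold changes of -0.30 ± 0.053 in shAD4-1 and -0.24 ± 0.054 in shAD4-2. Arrdc3, a relative of Txnip, had -0.49 ± 0.069 in shAD4-1 and -0.34 ± 0.069 in shAD4-2. Mlx, at 0.11 ± 0.07 in shAD4-1 and 0.13 ± 0.07 in shAD4-2, did not pass in either line (adjusted p = 0.176 for shAD4-1 and 0.122 for shAD4-2).

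Of the peroxiredoxins, Prdx1, Prdx3 and Prdx6 rose in both lines. Prdx1, the most abundant of them per gene length, had 860.2, 836 and 869.5 CPM in the shAD4-1 libraries, 777, 749 and 749 CPM in the shAD4-2 libraries and 719, 697 and 666 CPM in the control libraries. It was 1.23-fold higher in shAD4-1 (adjusted p = 9.51e-07) and 1.09-fold in shAD4-2 (adjusted p = 0.00477). The call in shAD4-2 was lost in limma on log2(FPKM + 1), at an adjusted p of 0.124. Prdx6, which also reduces phospholipid peroxides, had 327, 331 and 328 CPM in the shAD4-1 libraries, 298, 301 and 303 CPM in the shAD4-2 libraries and 196, 225 and 230.4 CPM in the control libraries, with log2 fold changes of 0.60 ± 0.047 in shAD4-1 and 0.47 ± 0.047 in shAD4-2. Prdx3, the mitochondrial member, rose by 0.42 ± 0.038 in shAD4-1 and 0.44 ± 0.038 in shAD4-2. Prdx2 and Prdx4 passed in neither line, and Prdx5 was lower in shAD4-2 (-0.25 ± 0.059, adjusted p = 0.00104) and did not pass in shAD4-1 (0.0061 ± 0.058, adjusted p = 0.934).

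Of the glutathione peroxidases, Gpx4, which reduces lipid peroxides in membranes and guards against ferroptosis, had 384, 361 and 369 CPM in the shAD4-1 libraries, 337, 346 and 329 CPM in the shAD4-2 libraries and 248, 274 and 287 CPM in the control libraries. All hairpin libraries lay above all controls (log2 fold change 0.46 ± 0.046, adjusted p = 7.13e-08 in shAD4-1 and 0.32 ± 0.046, adjusted p = 6.35e-06 in shAD4-2). Gpx1, the general cytosolic peroxidase, had 76.1, 80.3 and 74.3 CPM in the shAD4-1 libraries, 86.9, 84.2 and 85.6 CPM in the shAD4-2 libraries and 76.7, 83.1 and 83.6 CPM in the control libraries and passed neither test against control (adjusted p = 0.151 for shAD4-1 and 0.157 for shAD4-2). Gpx8, of the endoplasmic reticulum, was lower in shAD4-1 (-0.18 ± 0.055, adjusted p = 0.00703) and did not pass in shAD4-2 (0.026 ± 0.055, adjusted p = 0.692). Gpx2, Gpx3 and Gpx7 had too few reads to test, at no more than 5 reads over a group. Glutaredoxins reduce mixed disulfides with glutathione or carry iron-sulfur clusters. Glrx3, a cluster carrier, had 318, 323 and 318 CPM in the shAD4-1 libraries, 343, 349 and 343 CPM in the shAD4-2 libraries and 252, 238 and 249 CPM in the control libraries and was higher in both lines (0.38 ± 0.035 in shAD4-1 and 0.49 ± 0.035 in shAD4-2). Glrx and mitochondrial Glrx2 were lower in both, Glrx with log2 fold changes of -0.29 ± 0.10 in shAD4-1 and -0.57 ± 0.11 in shAD4-2 and Glrx2 with -0.24 ± 0.06 in shAD4-1 and -0.32 ± 0.061 in shAD4-2, while Glrx5 passed in neither.

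Of the enzymes that remove superoxide and hydrogen peroxide, Sod2 rose and Sod1 and Cat fell in both lines. Sod2, the mitochondrial manganese enzyme, had 108, 104 and 109 CPM in the shAD4-1 libraries, 92.2, 96.3 and 101 CPM in the shAD4-2 libraries and 53.9, 54.4 and 60.6 CPM in the control libraries. It was 1.90-fold higher in shAD4-1 (log2 fold change 0.93 ± 0.051, adjusted p = 1.81e-11) and 1.71-fold higher in shAD4-2 (0.77 ± 0.051, adjusted p = 1.92e-10), without overlap with control. Sod1, the cytosolic copper-zinc enzyme, had 147, 134 and 141 CPM in the shAD4-1 libraries, 143, 141 and 144 CPM in the shAD4-2 libraries and 165, 191 and 192 CPM in the control libraries and was lower in both lines (-0.38 ± 0.051 in shAD4-1 and -0.36 ± 0.051 in shAD4-2). Cat, catalase, which breaks hydrogen peroxide down in peroxisomes, had 82.1, 85.0 and 75.4 CPM in the shAD4-1 libraries, 70.1, 72.4 and 78.0 CPM in the shAD4-2 libraries and 104, 105 and 102 CPM in the control libraries and was lower as well (-0.36 ± 0.05 in shAD4-1 and -0.49 ± 0.051 in shAD4-2). Sod3, the secreted dismutase, was scarce, at 4.68 ± 0.481 CPM in shAD4-1, 5.27 ± 0.570 CPM in shAD4-2 and 3.84 ± 0.680 CPM in control libraries (SD, n = 3). It passed in shAD4-2 (0.45 ± 0.16, adjusted p = 0.0163) and not in shAD4-1 (0.28 ± 0.16, adjusted p = 0.127), and the lines did not differ by the test (adjusted p = 0.445).

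**Figure D3:**
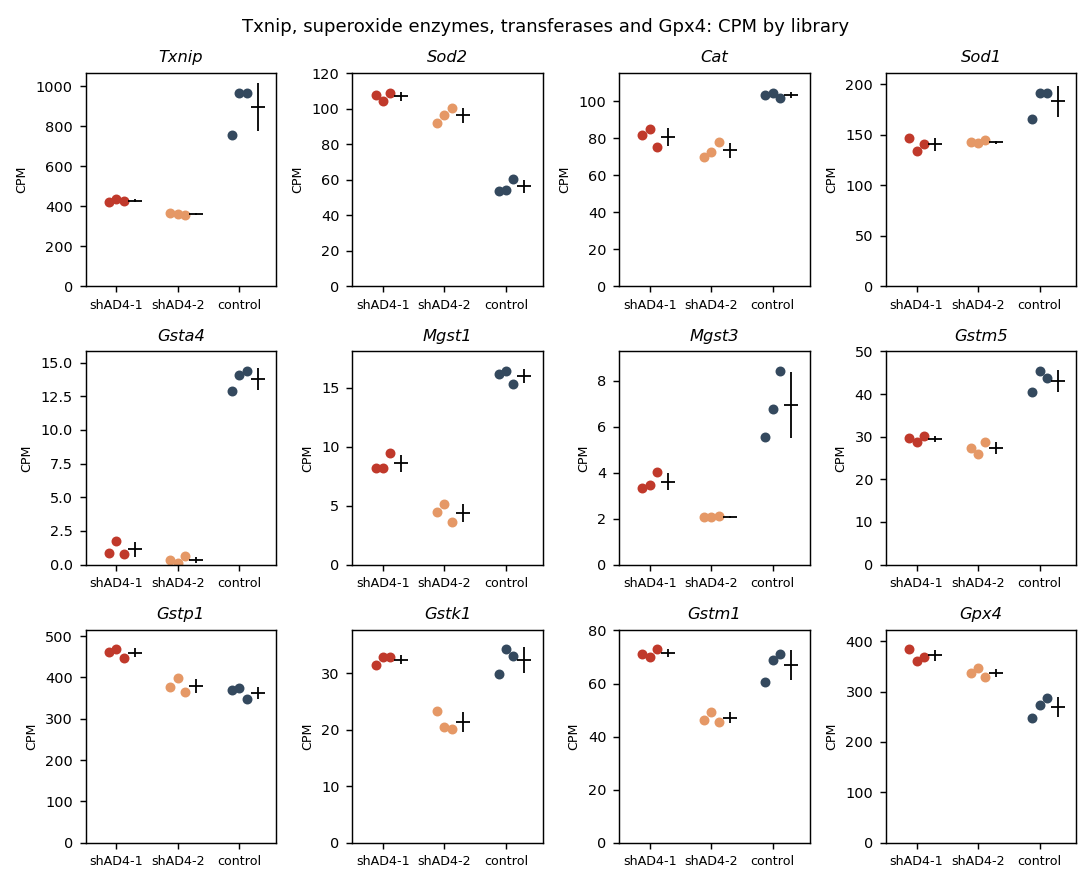
Scaled read counts (CPM, vertical axes from 0) in each library for Txnip, 3 enzymes of superoxide and peroxide removal, 7 transferases and Gpx4, with shAD4-1, shAD4-2 and control from left to right and a mean ± SD bar beside the 3 points. Gsta4 and Txnip sit far below control in both hairpin lines, while Gstk1 and Gstm1 are low in shAD4-2 and level with control in shAD4-1.

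Glutathione transferases couple glutathione to electrophiles. Of 22 tested, 3 were higher and 9 lower in shAD4-1, beside 32.7% and 32.3% of all tested genes. In shAD4-2, 1 was higher and 11 lower, beside 34.2% and 34.8%. Their median log2 fold change was -0.159 in shAD4-1 and -0.390 in shAD4-2, beside -0.0103 and -0.0111 over all tested genes. Gsta4, whose enzyme conjugates the lipid peroxidation product 4-hydroxynonenal, had 0.855, 1.79 and 0.798 CPM in the shAD4-1 libraries, 0.306, 0.0970 and 0.612 CPM in the shAD4-2 libraries and 12.9, 14.1 and 14.4 CPM in the control libraries. It rested on 31, 63 and 29 reads in shAD4-1 and 11, 3 and 19 reads in shAD4-2, against 419, 498 and 537 reads in control. It fell 12.05-fold in shAD4-1 (-3.59 ± 0.24, adjusted p = 3.52e-10) and 40.5-fold in shAD4-2 (-5.34 ± 0.30, adjusted p = 2.25e-11). The microsomal enzymes followed. Mgst1, of the endoplasmic reticulum and outer mitochondrial membrane, had 8.19, 8.17 and 9.44 CPM in the shAD4-1 libraries, 4.45, 5.11 and 3.58 CPM in the shAD4-2 libraries and 16.2, 16.4 and 15.4 CPM in the control libraries, a fall of 1.86-fold in shAD4-1 and 3.65-fold in shAD4-2. Mgst3 had 3.34, 3.49 and 4.02 CPM in the shAD4-1 libraries, 2.06, 2.07 and 2.13 CPM in the shAD4-2 libraries and 5.57, 6.79 and 8.44 CPM in the control libraries, a fall of 1.92-fold in shAD4-1 and 3.33-fold in shAD4-2. Without shAD4-2 replicate 3, the library with the most Gsta4 reads of its group, the log2 fold change of Gsta4 was -6.01 in shAD4-2 against control. Between shAD4-2 and shAD4-1 it was -1.75 with all libraries, -2.43 without that library and -0.68 in limma on log2(FPKM + 1), and it passed the test in all 3 fits. In Gsta4, Mgst1 and Mgst3 shAD4-2 was the lowest group, and no group overlapped another.

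The mu class was lower in part. Gstm5 had 29.6, 28.8 and 30.2 CPM in the shAD4-1 libraries, 27.3, 26.0 and 28.7 CPM in the shAD4-2 libraries and 40.4, 45.5 and 43.7 CPM in the control libraries (log2 fold changes -0.55 ± 0.061 in shAD4-1 and -0.66 ± 0.062 in shAD4-2). Gstm6 had 6.95, 10.4 and 9.14 CPM in the shAD4-1 libraries, 7.34, 5.69 and 6.09 CPM in the shAD4-2 libraries and 12.5, 15.0 and 15.7 CPM in the control libraries (-0.71 ± 0.13 in shAD4-1 and -1.17 ± 0.14 in shAD4-2), and Gstm7 had 3.34, 3.06 and 3.52 CPM in the shAD4-1 libraries, 1.97, 2.01 and 3.09 CPM in the shAD4-2 libraries and 4.92, 6.45 and 5.44 CPM in the control libraries (-0.76 ± 0.18 in shAD4-1 and -1.25 ± 0.19 in shAD4-2). Gstm1 had 70.9, 70.2 and 73.0 CPM in the shAD4-1 libraries, 46.4, 49.4 and 45.6 CPM in the shAD4-2 libraries and 60.5, 68.8 and 71.3 CPM in the control libraries: it overlapped control in shAD4-1 (0.093 ± 0.057, adjusted p = 0.16) and lay below every control in shAD4-2 (-0.51 ± 0.058, adjusted p = 3.72e-07). Gstk1, a kappa-class enzyme of mitochondria and peroxisomes, had 31.6, 32.8 and 32.9 CPM in the shAD4-1 libraries, 23.4, 20.6 and 20.2 CPM in the shAD4-2 libraries and 29.9, 34.3 and 33.1 CPM in the control libraries, the same pattern (-0.0014 ± 0.068, adjusted p = 0.987 in shAD4-1 and -0.60 ± 0.071, adjusted p = 5.19e-07 in shAD4-2). In the pi class the direction was upward. Gstp1, the most abundant transferase per gene length, had 462, 469 and 448 CPM in the shAD4-1 libraries, 376, 398 and 365 CPM in the shAD4-2 libraries and 369, 374 and 347 CPM in the control libraries and rose in shAD4-1 (0.34 ± 0.041, adjusted p = 7.48e-07), while shAD4-2 did not pass (0.063 ± 0.041, adjusted p = 0.179). Gstp2 had 64.6, 56.8 and 58.8 CPM in the shAD4-1 libraries, 42.7, 38.4 and 38.0 CPM in the shAD4-2 libraries and 34.5, 35.5 and 35.4 CPM in the control libraries (0.77 ± 0.061, adjusted p = 2.51e-09 in shAD4-1). Its smaller rise in shAD4-2 (0.18 ± 0.062, adjusted p = 0.0179) was lost without shAD4-2 replicate 1 (adjusted p = 0.12) and under upper-quartile scaling (adjusted p = 0.0515). In the alpha class Gsta2 had 1.6, 2.16 and 2.53 CPM in the shAD4-1 libraries, 2.25, 2.13 and 2.03 CPM in the shAD4-2 libraries and 4.09, 4.93 and 4.13 CPM in the control libraries (-1.06 ± 0.19 in shAD4-1 and -1.03 ± 0.19 in shAD4-2). Gsta1 scattered within groups, at 14.4, 3.69 and 3.25 CPM in the shAD4-1 libraries, 3.64, 8.76 and 8.77 CPM in the shAD4-2 libraries and 6.74, 5.07 and 5.58 CPM in the control libraries, and neither test passed (adjusted p = 0.535 for shAD4-1 and 0.564 for shAD4-2). Of the other transferases, Gsto1, an omega-class enzyme, was higher in shAD4-1 (0.33 ± 0.044, adjusted p = 2.97e-06), Gstm2 was lower in both lines (-0.24 ± 0.059 in shAD4-1 and -0.39 ± 0.06 in shAD4-2), Gstm4 lower in shAD4-2 (-0.39 ± 0.10, adjusted p = 0.00302) and Gstz1 lower in shAD4-1 (-0.21 ± 0.064, adjusted p = 0.00679). Gsta3, Gsto2, Gstt1, Gstt2, Gstt3 and Mgst2 passed in neither line, and Gstm3, Gstp3 and Gstt4 had no more than 4 reads over a group and were not tested. Pairs such as Gstp1 and Gstp2, the Gsta genes and the Gstm genes are close in sequence, so the division of reads among them is uncertain.

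Of the heme and iron genes, the ferritins dominated the antioxidant reads: Fth1 and Ftl1 together held 47.4 to 48.3% of the members' reads in shAD4-1, 44.1 to 45.1% in shAD4-2 and 49.3 to 52.0% in control libraries. Fth1, the ferritin heavy chain that oxidises iron for storage, had 2767, 2829 and 2757 CPM in the shAD4-1 libraries, 2088, 2137 and 1975 CPM in the shAD4-2 libraries and 1865, 2129.9 and 2253 CPM in the control libraries. It was higher in shAD4-1 (0.42 ± 0.052, adjusted p = 1.16e-06) and overlapped control in shAD4-2 (-0.011 ± 0.052, adjusted p = 0.862). Ftl1, the light chain, had 6281, 6356 and 6036 CPM in the shAD4-1 libraries, 4918, 4971 and 4779 CPM in the shAD4-2 libraries and 6198, 7399 and 7579 CPM in the control libraries. It was lower in shAD4-2 (-0.53 ± 0.055, adjusted p = 8.82e-08). Its small fall in shAD4-1 (-0.18 ± 0.054, adjusted p = 0.00707) overlapped control replicate 1 and was lost without control replicate 2 (adjusted p = 0.0553) or 3 (adjusted p = 0.0512). Both genes have many processed pseudogenes, whose share of the reads is unknown. Blvrb, biliverdin reductase B, had 50.8, 51.0 and 52.7 CPM in the shAD4-1 libraries, 33.4, 33.5 and 32.7 CPM in the shAD4-2 libraries and 31.7, 41.9 and 42.9 CPM in the control libraries. It was higher in shAD4-1 (0.40 ± 0.081, adjusted p = 0.00024) and called lower in shAD4-2 (-0.23 ± 0.083, adjusted p = 0.0214), where control replicate 1 lay below the hairpin libraries. That lower call did not survive leaving out control replicate 2 (adjusted p = 0.135), control replicate 3 (adjusted p = 0.146), shAD4-2 replicate 1 (adjusted p = 0.0522) or shAD4-2 replicate 3 (adjusted p = 0.0697), while without control replicate 1 the log2 fold change was -0.34 (adjusted p = 3.62e-06). Constitutive Hmox2 was lower (-0.22 ± 0.048 in shAD4-1 and -0.21 ± 0.048 in shAD4-2), and Blvra passed in neither line. Of 9 genes for iron supply and ferritin turnover, 4 were higher and 2 lower in shAD4-1, and 5 higher and 2 lower in shAD4-2, and of all tested genes 65% in shAD4-1 and 69% in shAD4-2 were called. Slc11a2, an iron importer, fell (-0.58 ± 0.06 in shAD4-1 and -0.72 ± 0.061 in shAD4-2).

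Aldo-keto reductases, which reduce aldehydes and ketones with NADPH, moved both ways. Akr1b7 had 81.7, 79.6 and 82.8 CPM in the shAD4-1 libraries, 57.9, 59.8 and 59.3 CPM in the shAD4-2 libraries and 45.4, 46.7 and 49.8 CPM in the control libraries, with log2 fold changes of 0.78 ± 0.048 in shAD4-1 and 0.32 ± 0.048 in shAD4-2. Akr1e1 had 35.3, 36.8 and 33.4 CPM in the shAD4-1 libraries, 39.5, 39.0 and 37.0 CPM in the shAD4-2 libraries and 56.6, 57.9 and 58.0 CPM in the control libraries and was lower in both lines (-0.71 ± 0.053 in shAD4-1 and -0.58 ± 0.053 in shAD4-2). Akr1a1, the most abundant of the class per gene length, had 403, 400.4 and 399 CPM in the shAD4-1 libraries, 419.5, 420.1 and 394 CPM in the shAD4-2 libraries and 485, 505 and 498 CPM in the control libraries and was lower too (-0.31 ± 0.036 in shAD4-1 and -0.27 ± 0.036 in shAD4-2). Akr1c13 had 15.6, 15.5 and 15.8 CPM in the shAD4-1 libraries, 24.0, 19.3 and 19.2 CPM in the shAD4-2 libraries and 13.2, 13.8 and 13.6 CPM in the control libraries: it was higher in shAD4-2 (0.62 ± 0.088, adjusted p = 4.55e-06) and just missed the threshold in shAD4-1 (0.20 ± 0.089, adjusted p = 0.051). Akr1b8 was lower in both lines, Akr1b3 higher in shAD4-1 and Akr1b10 lower in shAD4-2, while Nqo2, a quinone reductase related to Nqo1, passed in neither. Akr1c12, Akr1c18 and Akr1cl had too few reads to test, at no more than 16 reads over a group. These genes also have close relatives, so their reads may be shared.

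NADPH, the reducing power of both systems, comes largely from the pentose phosphate pathway and malic enzyme. Me1, cytosolic malic enzyme, averaged 157 ± 5.14 CPM in shAD4-1, 154 ± 2.88 CPM in shAD4-2 and 106 ± 7.60 CPM in control libraries (SD, n = 3) and rose by 0.57 ± 0.048 in shAD4-1 and 0.54 ± 0.048 in shAD4-2. Tkt, transketolase, rose by 0.33 ± 0.046 in shAD4-1 and 0.33 ± 0.047 in shAD4-2, and Pgd, phosphogluconate dehydrogenase, by 0.26 ± 0.039 in shAD4-1 and 0.15 ± 0.039 in shAD4-2. Taldo1, transaldolase, had 117, 121 and 126 CPM in the shAD4-1 libraries, 100.1, 104 and 103 CPM in the shAD4-2 libraries and 148, 154 and 160.5 CPM in the control libraries and was lower in both lines (-0.34 ± 0.042, adjusted p = 9.13e-07 in shAD4-1 and -0.59 ± 0.042, adjusted p = 5.84e-10 in shAD4-2). A further list held 15 tested genes of NADPH supply and linked pathways, not all of which make NADPH. Of these, 8 were higher and 2 lower in shAD4-1, and 8 higher and 5 lower in shAD4-2. The shares over all tested genes were 32.7% and 32.3% in shAD4-1 and 34.2% and 34.8% in shAD4-2. The mitochondrial folate enzymes Mthfd1l (1.03 ± 0.058 in shAD4-1 and 1.15 ± 0.058 in shAD4-2) and Aldh1l2 (1.18 ± 0.033 in shAD4-1 and 0.84 ± 0.033 in shAD4-2) rose, Aldh1l2 averaging 2161 ± 33.1 CPM in shAD4-1, 1707 ± 15.7 CPM in shAD4-2 and 955 ± 14.9 CPM in control. Me3, a mitochondrial malic enzyme, was higher by 0.84 ± 0.15 in shAD4-1 and 0.89 ± 0.15 in shAD4-2, and Nadk2, a mitochondrial NAD kinase, by 0.64 ± 0.091 in shAD4-1 and 0.41 ± 0.092 in shAD4-2.

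The difference between the hairpin lines ran through most classes. In shAD4-2 relative to shAD4-1, 35 of 75 tested members were lower and 4 higher (14% and 13.4% of all tested genes), and the median log2 fold change was -0.150, beside -0.00492 over all tested genes. Among the 56 members with a mean of at least 20 CPM, 29 were lower and 3 higher (51.8% and 5.36%), beside 16.4% and 18.9% of 7974 genes with that level. At least 1.5-fold lower were 8 members, beside 2.93% of all tested genes, and 0 were that much higher, beside 0.963%. The 8 were Gsta4, Mgst1, Mgst3, Hmox1, Blvrb, Gstk1, Gstm1 and Gstp2. In edgeR's test against a fold minimum (glmTreat), this minimum was set below 1.5-fold. By that test 9 members were lower and 0 higher, beside 203 lower and 95 higher of all 13807 tested genes. Mgst3 was not among these 9 (adjusted p = 0.0859 in glmTreat). Lower members made up 10 of 22 transferases, 5 of 9 quinone and aldo-keto reductases and 4 of 6 heme and ferritin genes. They also made up 4 of 6 genes of the thioredoxin system, 3 of 7 peroxiredoxins and sulfiredoxin and 3 of 5 genes of NADPH supply. Further lower members were 2 of 4 glutathione synthesis genes, both of Osgin1 and Abcc1 and 1 of 3 glutathione peroxidases. The rest were 1 of 4 genes for superoxide dismutases and catalase, 0 of 4 glutaredoxins and 0 of 3 regulators.

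Hmox1 averaged 205 ± 6.33 CPM in shAD4-2 and 348 ± 14.6 CPM in shAD4-1 (SD, n = 3), a 1.69-fold difference (-0.76 ± 0.041, adjusted p = 2.2e-09). Among the glutathione genes, Gclm (-0.48 ± 0.053), Gclc (-0.33 ± 0.056) and, outside the set, Slc7a11 (-1.08 ± 0.062) were lower in shAD4-2. Slc7a11 averaged 196 ± 13.9 CPM in shAD4-2 and 413 ± 15.8 CPM in shAD4-1. Both ferritins were lower, Fth1 (-0.43 ± 0.052) and Ftl1 (-0.35 ± 0.055). G6pdx (-0.42 ± 0.035), Srxn1 (-0.40 ± 0.037), Txnrd1 (-0.32 ± 0.044) and Akr1b7 (-0.46 ± 0.047) were lower as well. Neither Nfe2l2 (0.0021 ± 0.037, adjusted p = 0.976) nor Keap1 (-0.022 ± 0.057, adjusted p = 0.814) passed the test, nor did Sqstm1 (0.033 ± 0.038, adjusted p = 0.567).

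The 4 members higher in shAD4-2 differed by little. Akr1c13 (0.42 ± 0.086) and Gpx8 (0.21 ± 0.056) were followed by Gpx1 (0.15 ± 0.047) and Glrx3 (0.11 ± 0.035). The Glrx3 call was lost on leaving out any shAD4-1 library or shAD4-2 replicate 1 or 2 (adjusted p = 0.0615 to 0.0929). That of Gpx1 was lost without shAD4-1 replicate 1 or 3 or shAD4-2 replicate 1 (adjusted p = 0.0698 to 0.0956). Some lower calls also depended on single libraries. Nqo1 lost its call without shAD4-1 replicate 1 or 2 or shAD4-2 replicate 1 or 3 (adjusted p = 0.0513 to 0.13), and Gstm6 without shAD4-1 replicate 2 or 3 or shAD4-2 replicate 2 or 3 (adjusted p = 0.0688 to 0.14). Gpx4 lost it without shAD4-1 replicate 1 or 3 or shAD4-2 replicate 1 or 3 (adjusted p = 0.0659 to 0.135), and Sod2 without shAD4-1 replicate 1 or 3 or shAD4-2 replicate 1 or 2 (adjusted p = 0.0821 to 0.152). Leaving out control replicate 1, which enters this comparison through the shared filter, scaling and estimate of spread, moved the counts to 41 lower and 8 higher. The counts over all tested genes moved as well, from 1933 lower and 1844 higher to 2442 lower and 2495 higher. The share of mitochondrially encoded reads and the sum of the immune markers overlapped between the hairpin lines. The melanocyte markers (10700 to 11700 CPM in shAD4-2 and 9880 to 10100 CPM in shAD4-1) and the fibroblast markers (12.4 to 14 CPM in shAD4-2 and 10.4 to 12.2 CPM in shAD4-1) did not overlap, and their part in this comparison was not tested.

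**Figure D4:**
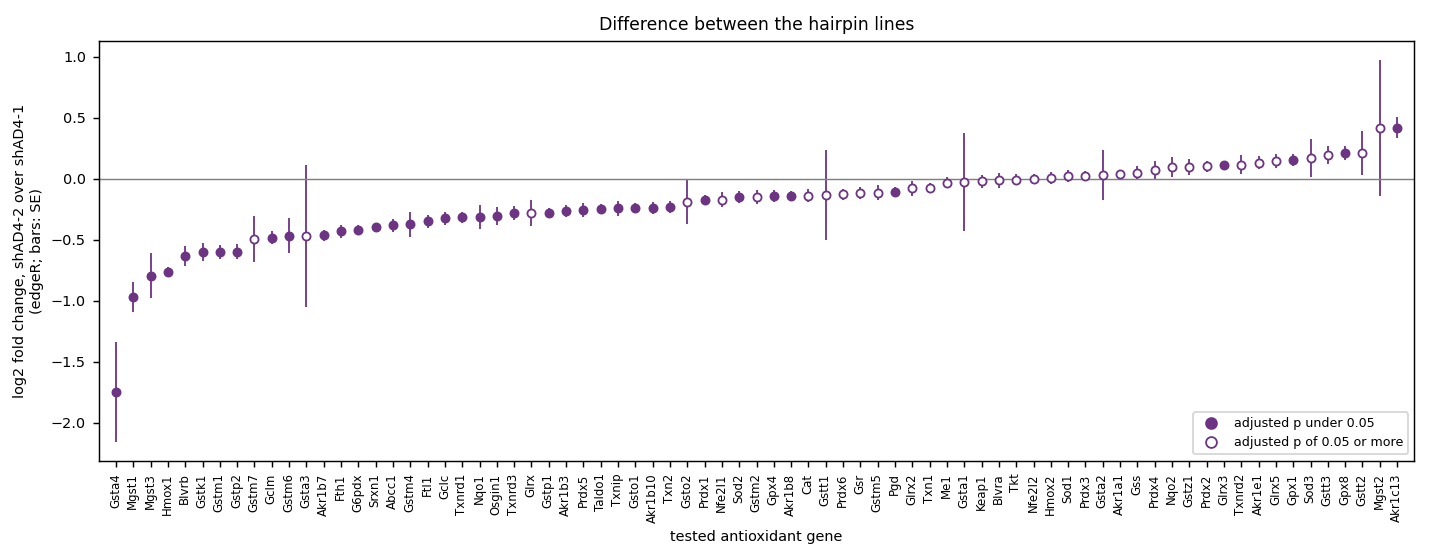
Log2 fold change of shAD4-2 over shAD4-1 (vertical axis, bars show the SE) for the 75 tested antioxidant genes in rising order, filled where the adjusted p is under 0.05. Filled points lie mostly below 0, with Gsta4 lowest at -1.75 and Akr1c13 the highest filled point at 0.42.

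Per gene length the set covered a wide range. In FPKM, which divides reads by gene length and library size, the ferritins were the only members over 1000: Ftl1 at 6325 ± 171 FPKM in shAD4-1, 4977 ± 99.2 FPKM in shAD4-2 and 7469 ± 767 FPKM in control libraries (SD, n = 3), and Fth1 at 2913 ± 38.9 FPKM in shAD4-1, 2166 ± 86.5 FPKM in shAD4-2 and 2269 ± 209 FPKM in control. In control, 14 members lay between 100 and 1000 FPKM, 39 between 10 and 100, 17 between 1 and 10, and 12 below 1. Next after the ferritins in control came Prdx1 at 503 ± 20.7 FPKM and Gstp1 at 501 ± 20.3 FPKM, which did not differ beyond their spread, then Akr1a1 at 360.1 ± 5.86 FPKM. Txnip, sixth in control at 329 ± 42.7 FPKM, stood at 151 ± 2.00 FPKM in shAD4-1 and 128 ± 1.62 FPKM in shAD4-2. Txnrd1 stood at 289 ± 3.39 FPKM in shAD4-1 and 232 ± 3.09 FPKM in shAD4-2, against 152 ± 11.1 FPKM in control, so the order of inhibitor and reductase turned round between hairpin and control libraries. Nfe2l2 was more abundant per length than Keap1 in every group: it stood at 70.4 ± 0.706 FPKM in shAD4-1, 70.6 ± 0.742 FPKM in shAD4-2 and 82.3 ± 3.11 FPKM in control, and Keap1 at 8.10 ± 0.127 FPKM in shAD4-1, 7.99 ± 0.483 FPKM in shAD4-2 and 8.11 ± 0.145 FPKM in control.

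**Figure D5:**
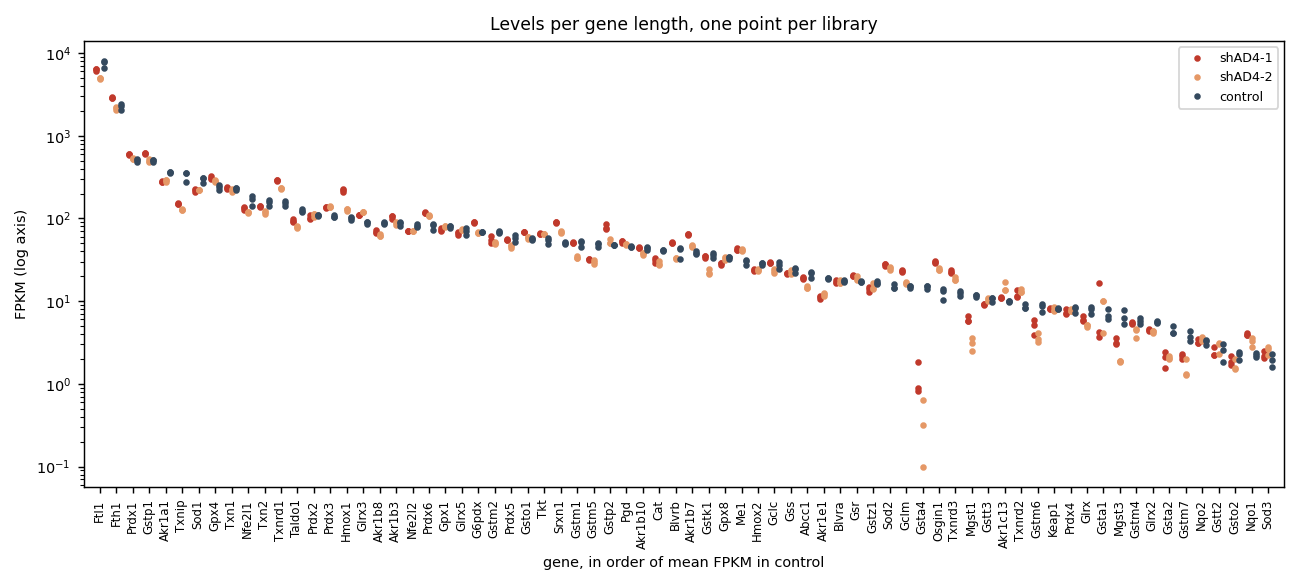
FPKM (log axis) in each library for the 72 members with a mean of at least 1 FPKM in control, in falling order of the control mean, with shAD4-1, shAD4-2 and control from left to right in each column. The ferritins lie above 1000, most genes between 10 and 1000, and Gsta4 has the widest gap between hairpin and control libraries.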

How the data were processed

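RNA of 9 libraries was measured, 3 each of B16 cells with the hairpin shAD4-1, with the hairpin shAD4-2 and with a control hairpin. Per the submitters' processing notes, reads were handled with fastp, HISAT2 and HTSeq on GRCm39, with no versions given. Strand use in counting is not given in the sources used here. Overlapping or antisense genes therefore cannot be told apart. The authors deposited whole-number read counts per gene, and FPKM values for the same genes and libraries. Column names give a control and 2 knockdown groups, and the knockdown groups were matched to the hairpins by number. Deposited FPKM follow from the counts, with implied gene lengths within 2.9e-11 of a whole number.

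The deposited counts were tested in edgeR 4.0.16 (R 4.3.3): filterByExpr left 13807 genes with 99.968% of reads, TMM factors scaled libraries, and glmQLFTest tested each contrast in 1 fit over all 9 libraries, with no covariate besides the group. Benjamini-Hochberg adjustment ran over every tested gene, with 0.05 as threshold. CPM use the TMM-scaled totals, and FPKM are as deposited. SEs were derived from the fold change and its F statistic. Values in every library are given for members past the threshold with at least a 1.5-fold change and no overlap of libraries, for a set of core genes, and for the most abundant member per length in each role. Members, roles and the lists of related genes were chosen with earlier results of these data known.

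The edgeR step was tested on simulated counts with known changes. In each comparison 50 genes were given each fold, far fewer than were called in the data. Genes with low mean counts were not changed, so the scarcest members, such as Gsta3 and Mgst2, were not covered. For shAD4-1 against control (13397 genes) 96% of the 1.5-fold and 98% of the 2-fold changes were found, with 16 false calls. For shAD4-2 against control (13405 genes) the shares were 94% and 96%, with 15, and for the hairpin lines against each other (13401 genes) 86% and 98%, with 11. Of 1.25-fold changes, 76% were found in shAD4-1 against control, 72% in shAD4-2 against control and 70% between the lines. Alternatives were other scalings, filters, DESeq2 1.42.0, limma 3.58.1 on log2 FPKM, glmTreat, a replicate block, only the 2 groups compared, protein-coding genes only, leaving out mitochondrially encoded genes, and leaving out each library. Promoter windows were searched on both strands for the motifs given.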

Additional observations from a re-analysis of the deposited data

Results flagged for a closer look

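Results of 9 genes were picked out because the effects of the hairpins against the same control differed from each other, by edgeR's quasi-likelihood test of shAD4-2 against shAD4-1 with a difference of at least 1.5-fold, or with opposite calls. All have lower values in shAD4-2. Gsta4 differed by -1.75 on the log2 scale (adjusted p = 0.00375), Mgst1 by -0.9731 (adjusted p = 1.64e-05) and Mgst3 by -0.7937 (adjusted p = 0.00322), and all of these were lower than control in both lines. Hmox1 differed by -0.7609 (adjusted p = 2.2e-09), with both lines above control, and Gstp2 by -0.5974 (adjusted p = 1.93e-06). Gstk1, by -0.5994 (adjusted p = 8.65e-06), and Gstm1, by -0.5989 (adjusted p = 1.28e-06), were lower than control in shAD4-2 and did not pass in shAD4-1. Blvrb, by -0.6314 (adjusted p = 2.15e-05), and Gclc, by -0.3251 (adjusted p = 0.000312), were called higher than control in shAD4-1 and lower in shAD4-2. The lower calls of Blvrb and Gclc in shAD4-2 were lost on leaving out single libraries. The differences between the hairpin lines kept their calls without each library in turn. When tested against a fold minimum set below 1.5-fold (glmTreat), the differences of Mgst3 (adjusted p = 0.0859) and Gclc between the hairpin lines did not pass.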

How the results depend on the processing

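Reads per library limit what can be seen of scarce members, such as Gsta4 in shAD4-2, Gsta3 and Mgst2, and of small differences: 65% and 69% of all genes were called against control, so a call there says little by itself. The test against a fold minimum, glmTreat, had this minimum set below 1.5-fold. With it, 17 members were higher and 9 lower in shAD4-1 against control (2249 and 2127 of all genes). In shAD4-2 against control 13 were higher and 18 lower (2551 and 2650 of all genes), and between the hairpin lines 0 were higher and 9 lower in shAD4-2 (95 and 203 of all genes). Fitted on only the groups compared, 7 members were higher in shAD4-2 than in shAD4-1. Without each library in turn, members called in shAD4-1 ran from 27 to 29 higher and 21 to 28 lower, in shAD4-2 from 20 to 24 and 27 to 32, and between the lines from 2 to 8 and 31 to 41 (all genes 4258 to 4719 and 4050 to 4487, 4524 to 4936 and 4410 to 4780, and 1329 to 2495 and 1439 to 2442). Other scalings, filters, DESeq2, limma, protein-coding genes only and leaving out mitochondrially encoded genes kept these counts within 1.5 times of the reported ones.

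Signs changed for log2 fold changes near 0 that had not passed the test, and the cause was not tested. Under shAD4-1 these were Gstk1 (0.0005454 in DESeq2, 0.01286 without a filter, 0.0008805 on only the groups compared, -0.0498 to 0.04723 without single libraries) and Keap1 (-0.0006862 in limma on log2(FPKM + 1) with or without an FPKM minimum, -0.000758 with a pseudocount of 0.1). Under shAD4-2 they were Fth1 (0.0009929 in DESeq2, -0.07405 to 0.05862 without single libraries), Gss (-0.07571 to 0.02587 without single libraries), Keap1 (-0.02029 and -0.02268 in limma, -0.01334 to 0.0799 without single libraries), G6pdx (-0.0117 with upper-quartile scaling, -0.003721 on protein-coding genes, -0.03592 and -0.0364 in limma) and Txn1 (-0.01706, -0.009038, -0.04187 and -0.04204 in the same alternatives, -0.0008895 to 0.05178 without single libraries). Between the lines they were Nfe2l2 (-0.008398 with upper-quartile scaling, -0.004409 without a filter, -0.003173 on protein-coding genes, -0.002712 to 0.01066 without single libraries), Keap1 (-0.07399 to 0.01362), Sod1 (-0.01173 to 0.05239) and Gsta2 (-0.1308 to 0.1907), these last without single libraries.

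By their replicate numbers the samples showed no clear pairing. Deviations from the group mean correlated at -0.124 to 0.00225 for same-numbered libraries and at -0.0694 to 0.11 for differently numbered ones. With 3 libraries per group, such correlations cannot exclude a pairing. With the number as a replicate block, members called were 27 higher and 23 lower in shAD4-1, 22 and 30 in shAD4-2, and 4 and 34 between the lines, where the fit without it gave 35 lower.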

Other observations

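Further lists held genes outside the antioxidant set, linked to ferroptosis, selenoproteins, thiol enzymes or NRF2. Of 6 genes linked to ferroptosis, cell death by lipid peroxidation, 4 were higher and 0 lower in shAD4-1, and 5 higher and 0 lower in shAD4-2. The list mixes genes on both sides of this process, and Slc7a11 was also counted with the cystine import genes. Of all tested genes, 32.7% were higher and 32.3% lower in shAD4-1, and 34.2% and 34.8% in shAD4-2, and the lists here were chosen with earlier results known. Gch1, GTP cyclohydrolase, which makes tetrahydrobiopterin, had 21.9, 22.5 and 21.8 CPM in the shAD4-1 libraries, 19.4, 19.8 and 22.3 CPM in the shAD4-2 libraries and 7.39, 9.40 and 9.84 CPM in the control libraries. It was 2.48-fold higher in shAD4-1 (edgeR, adjusted p = 8.82e-10) and 2.30-fold higher in shAD4-2 (adjusted p = 2.73e-09), with no overlap with control. Aifm2, the ubiquinone reductase FSP1, had 46.1, 50.6 and 49.1 CPM in the shAD4-1 libraries, 45.5, 42.1 and 43.3 CPM in the shAD4-2 libraries and 20.8, 24.9 and 23.5 CPM in the control libraries, with log2 fold changes of 1.07 ± 0.067 in shAD4-1 and 0.92 ± 0.067 in shAD4-2. Of 17 genes for selenoprotein synthesis and selenoproteins, 6 were higher and 8 lower in shAD4-1, and 7 each way in shAD4-2, close to those shares. Selenow, a small thiol selenoprotein, fell (-1.05 ± 0.07 in shAD4-1 and -1.01 ± 0.071 in shAD4-2), as did Pstk, the kinase of the selenocysteine tRNA (-0.68 ± 0.074 in shAD4-1 and -0.74 ± 0.075 in shAD4-2). Selenom was lower (-0.48 ± 0.076 in shAD4-1 and -0.59 ± 0.077 in shAD4-2). Selenos, of the endoplasmic reticulum, rose (0.91 ± 0.068 in shAD4-1 and 1.22 ± 0.068 in shAD4-2), as did Trnau1ap (0.69 ± 0.065 in shAD4-1 and 0.57 ± 0.066 in shAD4-2). Lrp8, a receptor for selenoprotein P, had 34.3, 30.9 and 35.9 CPM in the shAD4-1 libraries, 19.2, 16.6 and 18.4 CPM in the shAD4-2 libraries and 12.8, 16.8 and 15.9 CPM in the control libraries: it was higher in shAD4-1 than in both other groups (log2 fold change 1.15 ± 0.091 against control).

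Of 17 tested sestrins, methionine sulfoxide reductases and other thiol enzymes, 8 were higher and 4 lower in shAD4-1, and 9 higher and 5 lower in shAD4-2, beside 32.7% and 32.3% of all tested genes in shAD4-1 and 34.2% and 34.8% in shAD4-2. Sesn2, a stress-induced sestrin, had log2 fold changes of 0.16 ± 0.05 in shAD4-1 and 0.51 ± 0.05 in shAD4-2, and Sesn3 of -0.58 ± 0.069 in shAD4-1 and -0.71 ± 0.07 in shAD4-2. The sulfoxide reductases Msrb2 (0.80 ± 0.13 in shAD4-1 and 0.88 ± 0.13 in shAD4-2), Msrb3 (0.76 ± 0.061 in shAD4-1 and 0.89 ± 0.061 in shAD4-2) and Msra (0.56 ± 0.21 in shAD4-1 and 0.70 ± 0.21 in shAD4-2) rose. Park7, the redox-sensitive protein DJ-1, fell (-0.49 ± 0.05 in shAD4-1 and -0.59 ± 0.051 in shAD4-2). Further genes listed as NRF2 targets moved both ways: of 10 tested, 3 were higher and 4 lower in shAD4-1, and 2 higher and 6 lower in shAD4-2. Cbr3, a carbonyl reductase, had 2.90, 2.75 and 3.17 CPM in the shAD4-1 libraries, 1.97, 1.58 and 0.902 CPM in the shAD4-2 libraries and 7.82, 6.48 and 8.71 CPM in the control libraries, a fall of 2.61-fold in shAD4-1 and 5.10-fold in shAD4-2. Its relative Cbr1 fell by less (-0.64 ± 0.10 in shAD4-1 and -0.79 ± 0.11 in shAD4-2). The glycine transporter Slc6a9 (0.81 ± 0.046 in shAD4-1 and 0.60 ± 0.047 in shAD4-2) and the efflux pump Abcc4 (0.67 ± 0.046 in shAD4-1 and 0.53 ± 0.046 in shAD4-2) rose.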
